A study of Mus musculus with 22 samples.

Results

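Oxidative phosphorylation subunits are the nuclear-encoded proteins that build the 4 respiratory chain complexes and the ATP synthase. They were taken from the array annotation by symbol, as every gene beginning with Ndufa, Ndufb, Ndufc, Ndufs, Ndufv, Sdh, Uqcr, Cox4i, Cox5, Cox6, Cox7, Cox8 or Atp5. Of 97 such genes, 12 assembly factors (Ndufaf and Sdhaf) and the brown fat isoforms Cox7a1 and Cox8b were set aside. This gave 83 of the 19337 named genes on the array: 38 of complex I, 4 of complex II, 8 of complex III, 16 of complex IV and 17 of complex V. Ndufa4, now regarded as a complex IV subunit, is counted under complex I by its symbol. Cox7a2l and Ndufa4l2 are likewise placed under complexes IV and I by symbol alone, whatever their role there. The choice used names only, and each of the 83 genes lay above the floor on low values in every fit.

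White fat from mice carrying transplanted bone marrow was measured on 22 whole-transcript arrays, each labelled as male and C57BL/6J. Inguinal subcutaneous fat (ingWAT) had 3 arrays with Gipr-/-S100a9-/- marrow (called double-knockout here), 3 with Gipr-/- marrow and 4 with wild-type (WT) marrow. Epididymal fat (epiWAT) had 4 arrays for each of these kinds of marrow. In each group, 6 weeks of reconstitution were followed by 14 weeks of a diet with 60% of its calories from fat. Recipients of Gipr-/- and WT marrow were WT. The genotype of the recipients of double-knockout marrow, and the age of the mice, the sources used here do not give. The fat cells are the recipient's own, so the level of a knocked-out gene in whole fat need not fall. Gipr encodes the receptor of the gut hormone GIP, and S100a9 a calcium-binding protein of neutrophils and monocytes.

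The complexes hold further subunits encoded by mitochondrial DNA, which were not analysed here. Complex I takes electrons from NADH and complex II takes them from succinate. Complex III passes them to cytochrome c, complex IV passes them to oxygen, and the proton gradient built on the way drives complex V, the ATP synthase. White adipocytes hold fewer mitochondria than brown adipocytes, and inguinal fat is the depot in which brown-like (beige) adipocytes arise most readily. In whole tissue, fewer cells of a type and less RNA per cell cannot be told apart. Values below are log2 values or differences of them, and a difference of 1 is a factor of 2 on that reading. A gene's level is compared only with itself, since probes of different genes differ in brightness.

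The median SD within groups was 0.40 over the subunit genes, against 0.46 over the 14502 genes tested. Cox7c was the steadiest, with a pooled SD of 0.11, and stayed between 18.23 and 18.69 on all 22 arrays. It encodes a small structural subunit of complex IV. At the other end stood Cox6a2, Cox8c, Cox6b2 and Cox7b2, with pooled SDs of 2.03, 1.38, 1.04 and 1.02. These are the muscle and testis isoforms of complex IV, and they are described separately. The map of group means shows the subunits of each complex over the 6 groups.

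**Figure D1:**
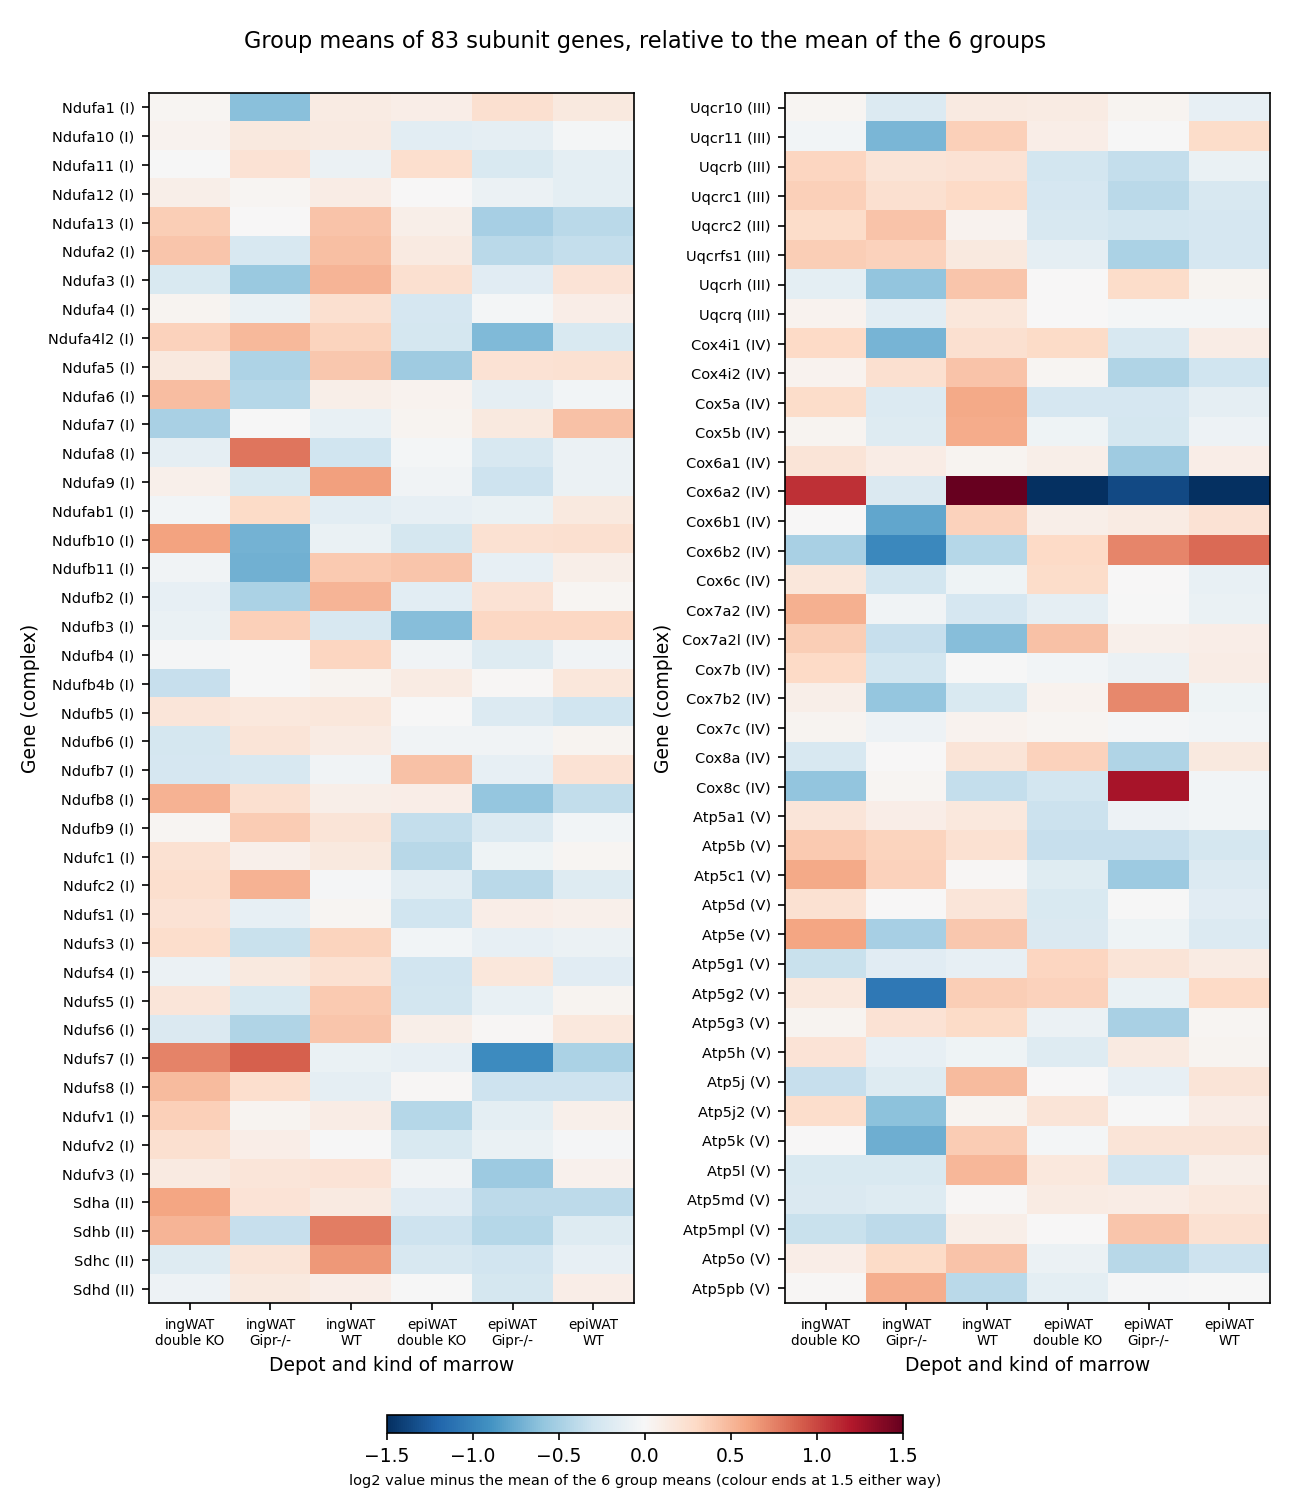
Group means of the 83 subunit genes, each set against the mean of its 6 group means. Columns run from ingWAT to epiWAT with double-knockout, Gipr-/- and WT marrow in each, rows are genes with their complex, and the colour scale in log2 units ends at 1.5 either way. Cox6a2 is the only gene that reaches the end of the scale, and in the ingWAT Gipr-/- column Atp5g2, Cox6b1, Atp5k and Ndufb11 are among the genes furthest below their own mean.

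Several features of the arrays bear on these values. Some ingWAT arrays carried muscle RNA: the score of 9 skeletal muscle genes (the mean of their values after each gene is centred on its own mean) was 3.16, 5.28 and -0.63 on the double-knockout arrays, -0.88, 0.87 and 2.26 on the Gipr-/- arrays, and 5.42, 7.61, 7.73 and -1.96 on the WT arrays. In epiWAT it lay between -2.87 and -1.95. A score of 5 B cell genes was 5.06 and 4.99 on ingWAT double-knockout arrays 1 and 3, against -1.18 on array 2 and at most -0.36 on any other ingWAT array. A score of 8 testis germ cell genes reached 7.65 on epiWAT Gipr-/- array 1, and a score of 7 epididymis genes reached 5.59 on epiWAT double-knockout array 1. The score of 10 white adipocyte genes in ingWAT was -0.07, 0.12 and 0.06 on the double-knockout arrays, 0.31, 0.29 and 0.18 on the Gipr-/- arrays, and between 0.00 and 0.17 on the WT arrays, so the Gipr-/- arrays were the highest. In epiWAT it lay between -1.44, on double-knockout array 1, and 0.36. The part of the adipocyte score in the subunit values was not tested. Running numbers in the sample titles set WT array 4 and Gipr-/- arrays 1 and 2 of ingWAT apart from the other ingWAT arrays. The labels do not say what these numbers stand for, and their part was not tested.

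The first question was whether Gipr-/- marrow altered subunit expression relative to WT marrow in ingWAT. Subunit genes of all 5 complexes had negative median differences, and none passed the adjusted threshold in limma, where 0.234% of all genes did (0.0276% on the lower side). At an unadjusted p under 0.05, 22 of the 83 genes were lower and 4 higher, while 5.1% of all genes were lower and 9.94% higher. The median difference was -0.18 over the 83 genes and 0.03 over all genes tested. By complex it was -0.08 for complex I (24 of 38 genes negative), -0.21 for complex II (2 of 4), -0.19 for complex III (6 of 8), -0.24 for complex IV (12 of 16) and -0.18 for complex V (14 of 17). The arrays of the groups did not overlap for 19 genes on the lower side and 5 on the higher side, where 5.15% and 10.2% of all genes did not.

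Sdhb, the iron-sulfur subunit of complex II, had values of 12.69, 12.44 and 12.79 with Gipr-/- marrow, against 13.94, 13.82, 13.98 and 13.29 with WT marrow. All 3 Gipr-/- arrays lay below all 4 WT arrays, and the difference was -1.12 (SE 0.24, limma adjusted p = 0.0651). Atp5g2, a gene for the rotating c ring of the ATP synthase, stood at 12.77, 12.01 and 12.95, against 13.82, 14.19, 14.82 and 13.28. Again the groups did not overlap, with a difference of -1.45 (SE 0.35, limma adjusted p = 0.0822). For the other complex II genes the differences were 0.07 for Sdha, the flavoprotein that oxidises succinate, and -0.46 and 0.05 for the membrane anchors Sdhc and Sdhd, each with overlapping groups.

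In complex IV, Cox4i1, the common form of subunit 4, differed by -0.94 (SE 0.22, limma adjusted p = 0.0750). Cox6b1 and Cox5b, structural subunits, differed by -1.12 and -0.75, with adjusted p-values of 0.186 and 0.214 in limma. In complex I the smallest p-values were those of Ndufs3, a core subunit, and the accessory subunits Ndufa9 and Ndufb11, at -0.67, -0.85 and -1.11. Ndufa8 went the other way, with 13.42, 13.77 and 13.98 in Gipr-/- fat and 12.26, 12.52, 12.96 and 12.78 in WT fat (difference 1.09, limma adjusted p = 0.166). In complex III, the small subunits Uqcr11 and Uqcrh were at -1.04 and -1.01, while the Rieske iron-sulfur protein Uqcrfs1 was at 0.19 and the core proteins Uqcrc1 and Uqcrc2 at -0.06 and 0.37. The ATP synthase genes Atp5e and Atp5k were at -0.90 and -1.11. With the muscle score in the fit, the median over the 83 genes was -0.09 with 47 negative, and 16 were lower and 4 higher at an unadjusted p under 0.05 (3.87% and 8.45% of all genes). Without WT array 3 the median was -0.10.

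The comparison of double-knockout with Gipr-/- marrow in ingWAT asked whether loss of S100a9 in the donor marrow changed these genes further. The genotype of the double-knockout recipients is not given, so a donor and a recipient difference cannot be told apart in it. Here 2 subunit genes rose and none fell: Atp5e and Cox4i1. Of all genes, 3.48% passed the threshold, 0.834% higher and 2.65% lower. At an unadjusted p under 0.05, 12 subunit genes were higher and 1 lower, against 7.07% and 11.9% of all genes. The median difference was 0.15 over the 83 genes, against -0.03 over all genes. Complex IV had the largest complex median, 0.48, with 13 of 16 genes positive; the medians were 0.14 for complex I, 0.08 for complex II, 0.17 for complex III and 0.07 for complex V. Groups did not overlap for 17 genes on the higher side and 4 on the lower, against 8.35% and 13.9% of all genes.

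Atp5e encodes the epsilon subunit of the F1 part of the ATP synthase. Its values were 9.38, 9.68 and 9.13 with double-knockout marrow, against 8.44, 8.17 and 8.29 with Gipr-/- marrow. Every double-knockout array lay above every Gipr-/- array, with a difference of 1.09 (SE 0.25, limma adjusted p = 0.0381). WT ingWAT had 9.39, 9.09, 9.33 and 9.00, which overlaps the double-knockout arrays and not the Gipr-/- arrays.

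Cox4i1 had values of 13.15, 12.96 and 13.24 with double-knockout marrow, against 11.96, 12.01 and 12.38 with Gipr-/- marrow. The groups did not overlap, and the difference was 1.0 (SE 0.23, limma adjusted p = 0.0382). WT ingWAT stood at 13.39, 12.86, 13.15 and 12.82, so the Gipr-/- arrays were the 3 lowest of the depot. Both calls depend on the arrays used. Atp5e stayed past the threshold without ingWAT WT array 4 or double-knockout array 2, and lost it when any of the other 8 ingWAT arrays was left out (adjusted p up to 0.150). Cox4i1 lost it without WT arrays 2 or 3, Gipr-/- arrays 1 or 2, or double-knockout arrays 1 or 3.

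Genes that missed the threshold in this comparison included Atp5g2 (difference 1.24, limma adjusted p = 0.0899), Ndufb10, an accessory subunit of complex I (1.31, 0.0959), and Sdhb (0.85, 0.0963). Sdhb stood at 13.65, 13.07 and 13.75 with double-knockout marrow, all above the 3 Gipr-/- values given above. Ndufb10 stood at 8.44, 7.49 and 7.84, against 6.93, 6.22 and 6.68. Among complex IV genes, Cox7a2l and Cox7b followed at 0.72 and 0.57. Sdha, Sdhc and Sdhd did not all go one way, at 0.39, -0.39 and -0.23. The Gipr-/- arrays serve in both ingWAT comparisons described so far, so a low Gipr-/- value enters each of them.

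**Figure D2:**
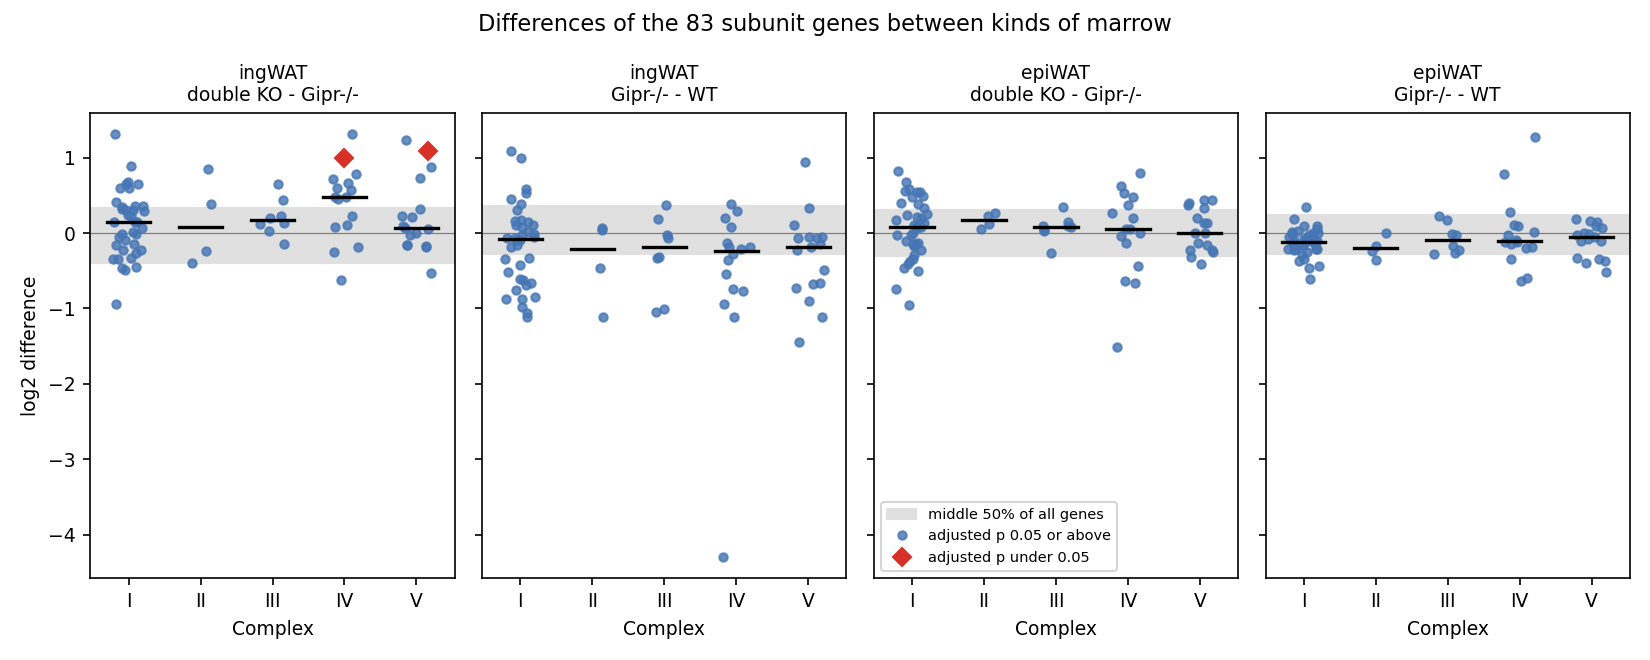
Differences of the 83 subunit genes between kinds of marrow, in log2 units, by complex. Each point is a gene, the black line is the complex's median, the grey band holds the middle 50% of all genes tested, and red diamonds mark an adjusted p under 0.05. The medians of all 5 complexes lie below 0 for ingWAT Gipr-/- minus WT, complex IV lies at 0.48 for ingWAT double knockout minus Gipr-/-, and the only diamonds are Cox4i1 and Atp5e there.

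**Figure D3:**
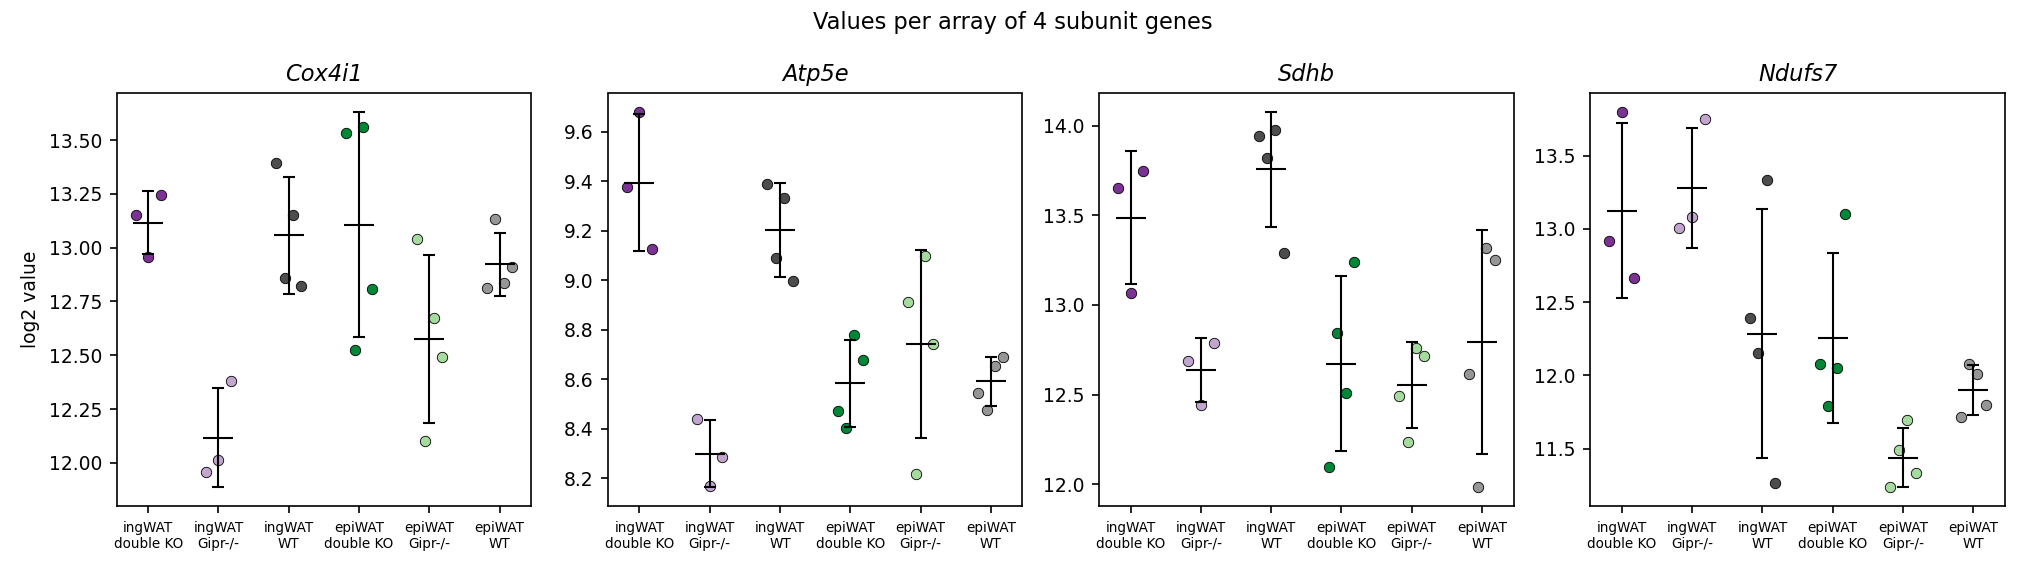
Log2 values per array of Cox4i1, Atp5e, Sdhb and Ndufs7 in the 6 groups, with the mean and SD as bars. The 3 ingWAT Gipr-/- arrays lie below all other ingWAT arrays for Cox4i1, Atp5e and Sdhb, and Ndufs7 is higher in ingWAT than in epiWAT with Gipr-/- marrow.

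Other features of the arrays moved with this comparison. Both arrays with high B cell scores belong to the double-knockout group. Without them the median was 0.34, with Atp5e at 1.38 and Cox4i1 at 0.84. That fit has 1 double-knockout array, assumed to vary like the other groups. With the muscle score in the fit, 0 subunit genes passed, with adjusted p-values of 0.0544 for Atp5e and 0.0531 for Cox4i1 in limma. The share of all genes that passed in that fit is not given here, so this count is not read as a result about the subunits. Cytosolic ribosomal protein genes (62 genes with Rpl or Rps symbols, a list added after their values were seen) also stood apart. Their score was 0.64, 0.54 and 0.71 with double-knockout marrow, -0.54, -0.74 and -0.41 with Gipr-/- marrow, and between -0.59 and -0.11 with WT marrow. Of the 62, 34 rose in double-knockout against Gipr-/- fat. None of 76 mitochondrial ribosomal protein genes passed there, and their median difference was -0.03. Of 10 white adipocyte genes, Lep (leptin) fell, at -1.44. Of 9 macrophage genes, Mrc1 (the mannose receptor) and Mertk (a receptor for apoptotic cells) fell, by 1.68 and 1.76 on the log2 scale, and the macrophage score was -1.54, -0.68 and -1.06 with double-knockout marrow, against 0.07, -0.12 and -0.07 with Gipr-/- marrow. The part of the ribosomal and macrophage genes in the subunit result was not tested.

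Between double-knockout and WT marrow in ingWAT, 0 of the 83 genes and 0% of all genes passed the threshold in limma. At an unadjusted p under 0.05, 3 were higher and 4 lower, against 7.07% and 6.43% of all genes, and the median was -0.07. The sign of that median was not stable: it was 0.01 with the muscle score in the fit, where 8 were higher and 3 lower (6.74% and 6.52% of all genes), 0.11 without the 2 arrays with high B cell scores, and 0.01 without WT array 3. Groups did not overlap for 2 genes on the higher side and 3 on the lower, against 5.08% and 5.91% of all genes. Cox7a2l had the smallest p, with 12.23, 11.62 and 12.13 in double-knockout fat and 11.19, 10.76, 11.36 and 10.62 in WT fat. The groups did not overlap, and the difference was 1.01 (SE 0.25, limma adjusted p = 0.124). It passed when double-knockout array 2 was left out, at 1.20 with a limma adjusted p of 0.0238, and stood at 0.64 with an adjusted p of 0.514 without arrays 1 and 3, those with high B cell scores. Sdhc and Atp5l, a subunit of the synthase's membrane part, were at -0.85 and -0.72, each with no overlap between the groups.

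Of 14 regulators of mitochondrial genes tested, Ppargc1b passed the threshold in ingWAT. It encodes PGC-1 beta, a coactivator that, with its relative PGC-1 alpha (Ppargc1a), drives the transcription of respiratory genes. Ppargc1b had 7.83, 7.49 and 7.37 in double-knockout fat, 5.40, 5.82 and 6.48 in Gipr-/- fat, and 8.26, 7.37, 8.52 and 7.19 in WT fat. The Gipr-/- arrays were again the lowest. It rose in double-knockout against Gipr-/- fat, by 1.66 (SE 0.41, limma adjusted p = 0.0491). Between Gipr-/- and WT marrow it differed by -1.94 (SE 0.38, limma adjusted p = 0.0561).

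Ppargc1a stood at 7.38, 6.74 and 8.77 with Gipr-/- marrow, against 9.86, 9.62, 10.81 and 9.12 with WT marrow. The groups did not overlap, and the difference was -2.22 (SE 0.54, limma adjusted p = 0.0856). With double-knockout marrow it stood at 9.99, 8.29 and 9.01, 1.46 above Gipr-/- marrow (limma adjusted p = 0.191). Gabpa, the DNA-binding subunit of the transcription factor GABP, differed by 0.67 between double-knockout and Gipr-/- fat (limma adjusted p = 0.197).

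Genes around the complexes did not all follow the subunits. For double-knockout against Gipr-/- marrow in ingWAT, 1 of 17 complex IV assembly genes passed: Cox15, needed to make the haem a of complex IV, fell by 1.31 on the log2 scale (limma adjusted p = 0.0317). Of 7 inner membrane carriers, Slc25a20, the carnitine carrier that brings in fatty acids, fell by 1.31 (limma adjusted p = 0.0422). None of 14 citric acid cycle genes passed, and their median was -0.16. For Gipr-/- against WT marrow, none of these lists held a gene past the threshold; the citric acid cycle median was 0.06 and the thermogenic gene median -0.69. Complex I assembly genes had medians of -0.22 for double-knockout against Gipr-/- and -0.09 for Gipr-/- against WT marrow.

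Promoter sequences from RefSeq (build GRCm38.p6) were available for 68 of the 83 genes, as 73 windows of 300 bases, 250 before and 50 after the start of transcription. Motifs were searched on both strands, and overlaps between motifs were kept. The NRF1 motif was in 24.7% of the subunit windows, against 4.6% of all 32851 windows. The ETS motif bound by GABP (CCGGAAG) was in 23.3%, against 8.86%, and the YY1 motif (AAGATGGCG) in 9.59%, against 1.4%. The motif of oestrogen-related receptors (AAGGTCA) was in 8 of 73, against 4.72%. The median GC content was 57.7%, against 52.7% over all windows. A match is a run of letters and not a measured site. The 250 bases before the start are shown for Atp5e, Ndufs7 and Sdhb, whose values are given per array, and for Cox6a1, as a promoter with several matches. Capitals mark the motif matches in these bases, 1 ETS match in Atp5e, and 2 NRF1 matches and 1 ETS match in Cox6a1; ETS matches there are on the reverse strand and read CTTCCGG. The bases shown for Sdhb and Ndufs7 hold no match, but their windows, which run 50 bases past the start, count as carrying the ETS motif in Sdhb and the YY1 motif in Ndufs7. The Atp5e window likewise carries the oestrogen-related receptor motif beside its ETS match. MEF2, also searched, was in 1.37% of subunit windows and 3.69% of all.
Atp5e, chr2:174464102-174464351, minus strand: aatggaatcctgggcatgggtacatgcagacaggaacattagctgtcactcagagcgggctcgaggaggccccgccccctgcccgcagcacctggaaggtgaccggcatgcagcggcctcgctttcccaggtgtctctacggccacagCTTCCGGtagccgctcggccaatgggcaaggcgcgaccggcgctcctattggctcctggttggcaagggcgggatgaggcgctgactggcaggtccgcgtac
Cox6a1, chr5:115348959-115349208, minus strand: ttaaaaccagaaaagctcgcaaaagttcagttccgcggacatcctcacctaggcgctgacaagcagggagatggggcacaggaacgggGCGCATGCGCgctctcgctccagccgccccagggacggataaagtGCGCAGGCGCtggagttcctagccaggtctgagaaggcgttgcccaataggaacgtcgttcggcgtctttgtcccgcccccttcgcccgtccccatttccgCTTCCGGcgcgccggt
Sdhb, chr4:140961021-140961270, plus strand: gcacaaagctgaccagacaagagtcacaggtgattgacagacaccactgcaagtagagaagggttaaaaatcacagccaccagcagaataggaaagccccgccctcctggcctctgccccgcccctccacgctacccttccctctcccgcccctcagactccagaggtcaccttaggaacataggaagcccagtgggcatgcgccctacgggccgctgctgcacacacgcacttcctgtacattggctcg
Ndufs7, chr10:80249199-80249448, plus strand: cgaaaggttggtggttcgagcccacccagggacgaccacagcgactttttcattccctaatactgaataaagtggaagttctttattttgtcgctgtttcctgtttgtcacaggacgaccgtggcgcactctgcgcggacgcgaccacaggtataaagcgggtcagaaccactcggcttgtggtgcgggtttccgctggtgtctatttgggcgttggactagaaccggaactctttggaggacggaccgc

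In epiWAT no subunit gene passed the threshold between kinds of marrow. For Gipr-/- against WT marrow, 0 of the 83 genes and 0% of all genes passed in limma, and 62 of the 83 had negative differences. The median was -0.10, against -0.02 over all genes, and 2 genes were lower and 0 higher at an unadjusted p under 0.05 (3.92% and 3.34% of all genes, 7.25% in either direction). Groups did not overlap for 4 genes on the lower side and 0 on the higher, against 2.75% and 2.29% of all genes. The genes lower at an unadjusted p under 0.05 were Cox8a and Cox6a1, the common forms of complex IV subunits 8 and 6a, at -0.60 and -0.63. Cox8a had values of 16.31, 16.74, 15.98 and 16.10 with Gipr-/- marrow, against 16.97, 16.88, 16.88 and 16.80 with WT marrow. The Gipr-/- arrays lay below the WT arrays, and the limma adjusted p was 0.579. With the epididymis score in the fit, 10 genes were lower and 0 higher at an unadjusted p under 0.05 (8.32% and 4.39% of all genes), and the median was -0.18. The median was -0.21 without WT array 2 and -0.05 without WT array 3. Cell markers differed between these groups as well: the macrophage score was 0.54, 1.17, 1.83 and 1.37 with Gipr-/- marrow, against 1.15, -0.47, 0.25 and 0.36 with WT marrow. With double-knockout marrow it was -1.07, 0.58, -0.31 and -0.22. The white adipocyte score was -0.49, -0.17, 0.20 and 0.08 with Gipr-/- marrow, against 0.25, -0.32, 0.21 and 0.36 with WT marrow, and overlapped. The part of these markers in the subunit values was not tested.

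For double-knockout against Gipr-/- marrow in epiWAT, 0 genes passed, again with 0% of all genes called in limma. At an unadjusted p under 0.05, 6 were higher and 3 lower (5.28% and 5.45% of all genes), and 52 of 83 differences were positive, with a median of 0.08. Without double-knockout array 4 the median was -0.00293. Cox8a stood at 17.12, 17.28, 17.07 and 16.86 with double-knockout marrow, all above the 4 Gipr-/- values, with a difference of 0.80 (SE 0.19, limma adjusted p = 0.227). Groups did not overlap for 3 genes on each side, against 3.14% of all genes higher and 2.91% lower. Among them were the complex I genes Ndufs7, Ndufa13 and Ndufa5, at 0.82, 0.59 and -0.74, with adjusted p-values of 0.305, 0.348 and 0.249 in limma. With the epididymis score in the fit, 15 were higher at an unadjusted p under 0.05 (9.43% of all genes). There 0 subunit genes passed the adjusted threshold, a count given without the share of all genes in that fit. Between double-knockout and WT marrow, 0 genes passed (0% of all genes), 1 was higher and 1 lower at an unadjusted p under 0.05 (1.44% and 1.62% of all genes, 3.06% in either direction), and the median was -0.04. Groups did not overlap for 1 gene on each side, against 1.06% of all genes higher and 1.27% lower. By complex the medians lay between -0.11 and 0.00 on the deposited scale, and those of complexes III and IV changed sign with the scaling.

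**Figure D4:**
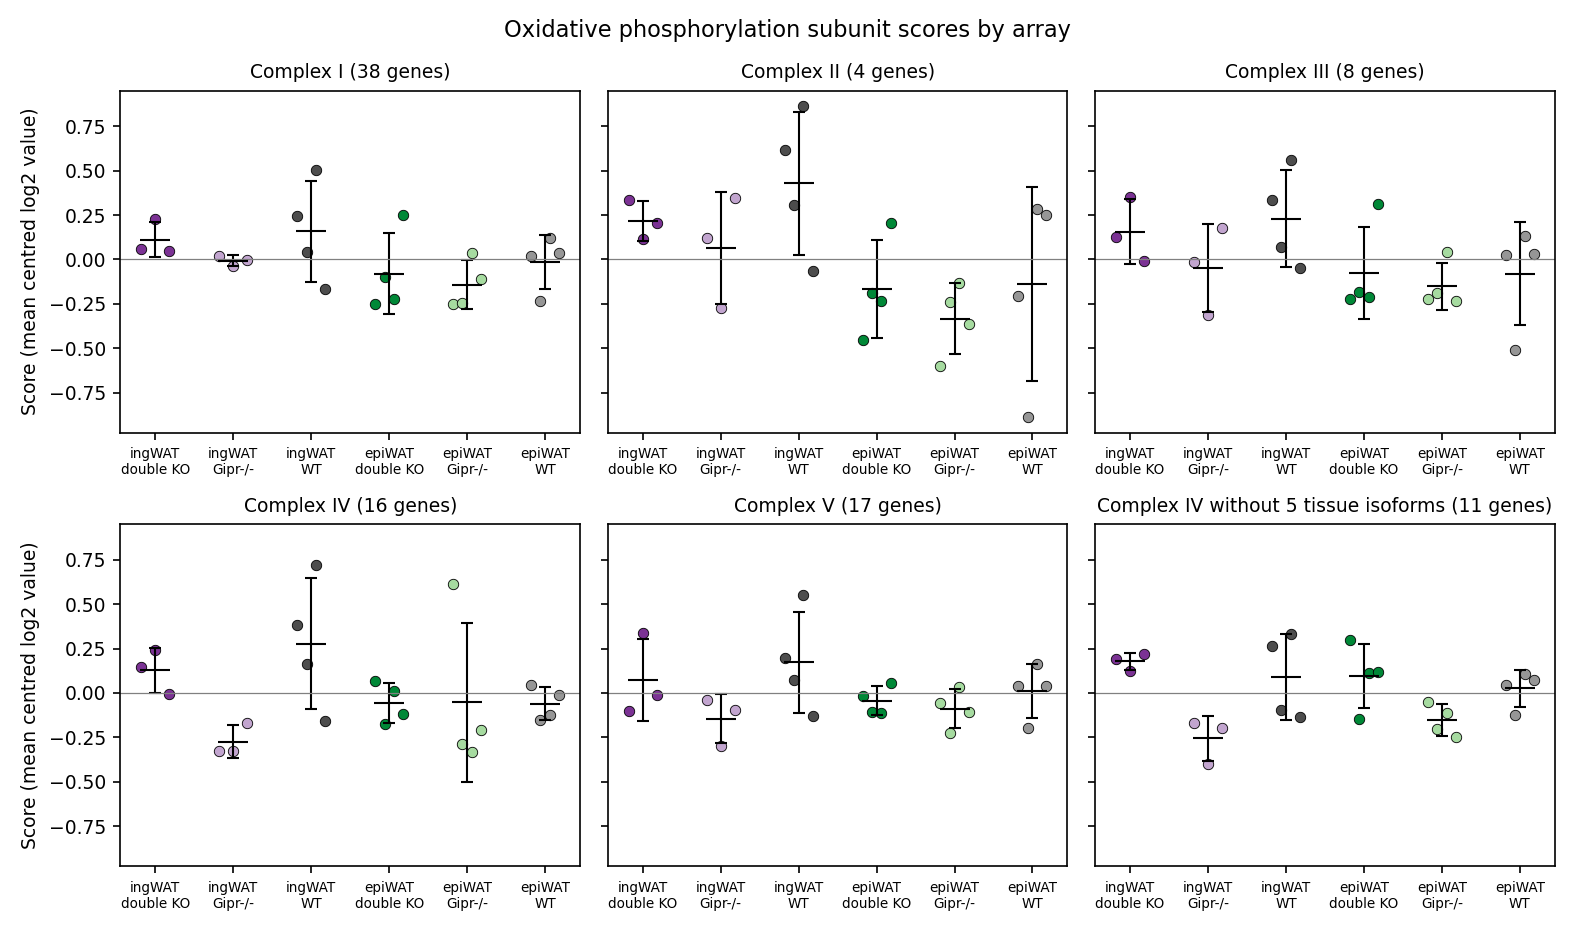
Score of each complex on the 22 arrays in log2 units (the mean of its genes' values after centring each gene), by depot and kind of marrow, with the mean and SD as bars. The last panel is complex IV without Cox4i2, Cox6a2, Cox6b2, Cox7b2 and Cox8c: there the 3 ingWAT Gipr-/- arrays, at -0.17, -0.40 and -0.19, lie below the 3 double-knockout arrays, at 0.19, 0.13 and 0.22.

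Complex by complex, the score per array shows how much of the difference is shared. Complex IV without its 5 tissue isoforms stood at 0.19, 0.13 and 0.22 in ingWAT with double-knockout marrow, at -0.17, -0.40 and -0.19 with Gipr-/- marrow, and at 0.26, -0.10, 0.33 and -0.14 with WT marrow. The Gipr-/- arrays were the lowest of the depot, while WT arrays fell on both sides of 0. The complex I score was 0.06, 0.23 and 0.05 with double-knockout, 0.02, -0.04 and 0.00 with Gipr-/- and 0.25, 0.04, 0.51 and -0.16 with WT marrow. Here too the double-knockout arrays lay above the Gipr-/- arrays, and the WT arrays overlapped both. For complexes II, III and V the double-knockout and Gipr-/- arrays overlapped. The complex II score was 0.34, 0.11 and 0.20 with double-knockout marrow, against 0.12, -0.27 and 0.35 with Gipr-/- marrow. For complex III it was 0.13, 0.35 and -0.01, against -0.02, -0.31 and 0.18. For complex V it was -0.10, 0.34 and -0.01, against -0.04, -0.30 and -0.10. WT array 3, which had the highest muscle score, was the highest array for each of the 5 complexes, and WT array 4, which had the lowest muscle score in the depot, was the lowest WT array for each of them.

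The depots were then compared within each kind of marrow. With double-knockout marrow, 1 subunit gene rose in ingWAT relative to epiWAT, Atp5e, where 3.92% of all genes passed (1.71% higher). At an unadjusted p under 0.05, 11 were higher and 2 lower, against 9.3% and 11.9% of all genes, and the median was 0.13 with 57 of 83 positive. With Gipr-/- marrow, Ndufs7 rose, where 0.614% of all genes passed (0.359% higher). Unadjusted, 13 were higher and 10 lower (8.21% and 6.89% of all genes), and the median was 0.05 with 44 of 83 positive. With WT marrow, Cox6a2 rose, where 1.97% of all genes passed (1.03% higher). Unadjusted, 11 were higher and 2 lower (6.8% and 9.82% of all genes). The median was 0.18, against -0.07 over all genes, and 61 of 83 were positive, among them all 8 of complex III and all 4 of complex II. Some of these differences were very small, with Sdhd at 0.00725 and Uqcr11 at 0.07. In complex III the smallest unadjusted p in limma was 0.132, for Uqcrb.

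Ndufs7 encodes the core subunit of complex I that holds its last iron-sulfur cluster before ubiquinone. With Gipr-/- marrow it stood at 13.01, 13.08 and 13.75 in ingWAT, against 11.23, 11.49, 11.69 and 11.33 in epiWAT. The depots did not overlap, and the difference was 1.84 (SE 0.38, limma adjusted p = 0.0330). With double-knockout marrow ingWAT had 12.92, 13.80 and 12.66, against 12.08, 11.79, 12.05 and 13.10 in epiWAT. With WT marrow ingWAT had 12.39, 12.15, 13.33 and 11.26, against 11.72, 12.08, 12.01 and 11.80. The depots overlapped in both of these.

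Atp5e in epiWAT stood at 8.47, 8.40, 8.78 and 8.68 with double-knockout marrow, below all ingWAT double-knockout arrays. The depot difference was 0.81 (SE 0.21, limma adjusted p = 0.0359) with double-knockout marrow and 0.61 (adjusted p = 0.116) with WT marrow. With WT marrow, complex II had the largest depot median, 0.65, with Sdhb at 0.96 (limma adjusted p = 0.0860) and Sdhc at 0.78 (0.152). Ndufa13, an accessory subunit of complex I, had 6.12, 5.67, 5.97 and 5.36 in WT ingWAT, against 4.99, 5.23, 4.70 and 4.85 in WT epiWAT. The depots did not overlap, and the difference was 0.83 (limma adjusted p = 0.0590).

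The calls on Cox6a2, Ndufs7 and Atp5e between depots held when an array of another group is left out. Cox6a2 stayed past the threshold without ingWAT WT array 4 and Ndufs7 without epiWAT Gipr-/- array 3; without any other array of the 2 groups compared, each lost it. Atp5e stayed past it without epiWAT double-knockout array 4 and lost it without any other double-knockout array. With the muscle score in a fit of all 22 arrays, 0 subunit genes passed in any of the 3 depot comparisons. The share of all genes that passed in those fits is not given here, so this count is not read as a result about the subunits. The medians were then -0.00179 for double-knockout, -0.02 for Gipr-/- and -0.11 for WT marrow, with 41, 41 and 35 of 83 positive. At an unadjusted p under 0.05, 3 were higher and 5 lower with double-knockout marrow, against 8.74% and 9.74% of all genes. With Gipr-/- marrow 7 were higher and 14 lower, against 7.52% and 6.25% of all genes. With WT marrow 3 were higher and 1 lower, against 4.54% and 5.83%. The balance for Gipr-/- marrow was thus opposite to that without the score. Ndufs7 differed by 1.36 in that fit (limma adjusted p = 0.0860) and Atp5e by 0.66 (adjusted p = 0.183).

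Cox6a2 encodes the heart and skeletal muscle form of subunit 6a. In ingWAT it had 7.92, 10.55 and 6.13 on the double-knockout arrays, 5.93, 6.83 and 7.90 on the Gipr-/- arrays, and 10.53, 12.76, 15.72 and 5.71 on the WT arrays. In epiWAT all 12 arrays lay between 4.93 and 6.08. The depot difference with WT marrow was 5.71 (SE 1.31, limma adjusted p = 0.0277). The order of the WT arrays by Cox6a2 was that of their muscle scores, which leave Cox6a2 out, and array 4, with a score of -1.96, stood close to epiWAT. With the muscle score in the fit the difference turned to -0.29 (limma adjusted p = 0.925). Its ubiquitous counterpart Cox6a1 differed between depots by 0.10 with double-knockout, 0.65 with Gipr-/- and -0.06 with WT marrow, with overlapping arrays in each.

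Cox8c, Cox6b2 and Cox7b2 encode testis forms of complex IV subunits. On epiWAT Gipr-/- array 1, Cox8c stood at 11.82, against 6.07, 5.72 and 6.27 on the other 3 arrays of that group. Cox6b2 stood at 8.95 there, against 4.96, 3.85 and 5.69, and Cox7b2 at 8.56, against 4.82, 4.06 and 4.85. On all other arrays, Cox8c lay at most at 6.93. The germ cell score of that array, 7.65, was the highest of the 22, and the next, 3.12, was on epiWAT WT array 2. The complex IV score of that array was 0.61 with the tissue isoforms and -0.05 without them.

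**Figure D5:**
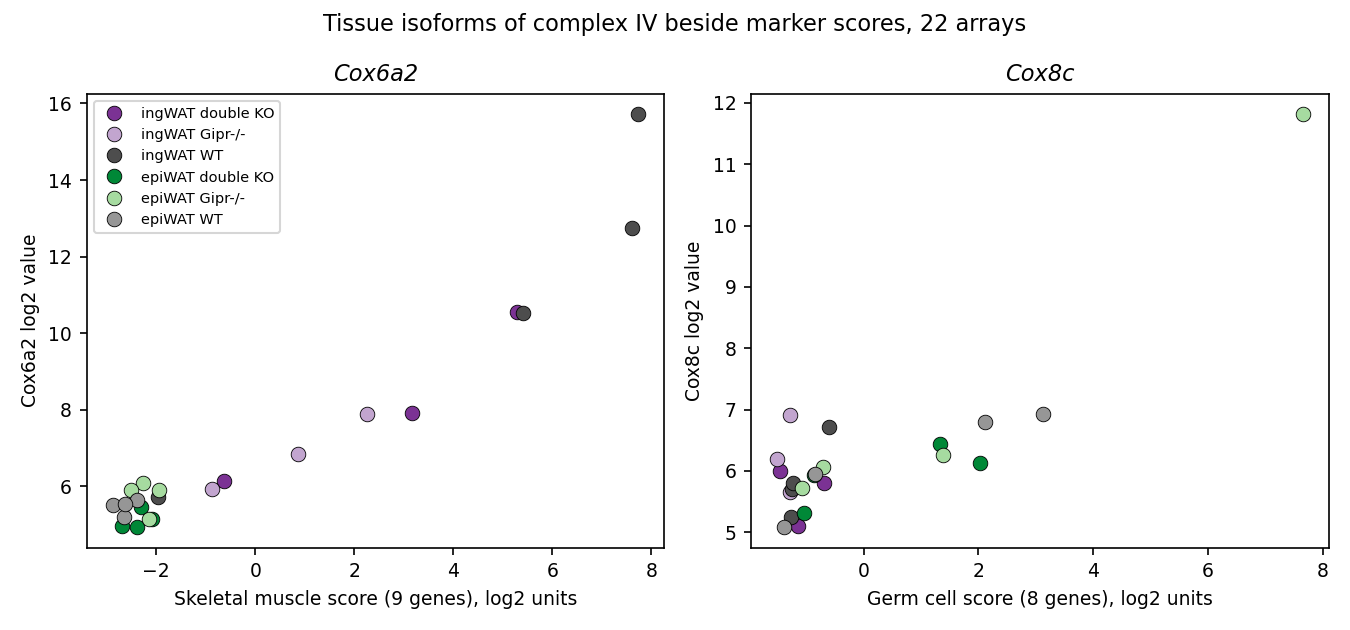
Log2 values of Cox6a2 against the skeletal muscle score (left) and of Cox8c against the testis germ cell score (right) on the 22 arrays, coloured by depot and kind of marrow. The ingWAT arrays spread along the muscle score with Cox6a2 reaching 15.72, and epiWAT Gipr-/- array 1 stands alone with Cox8c at 11.82 and a germ cell score of 7.65.

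Cox7a1 and Cox8b, complex IV isoforms of brown fat and of heart and skeletal muscle, were kept apart from the 83 genes. With WT marrow Cox7a1 was higher in ingWAT by 2.85 (SE 0.67, limma adjusted p = 0.0304) and Cox8b differed by 2.55, which missed the threshold (adjusted p = 0.05001). With double-knockout marrow Cox8b was higher by 3.53 (SE 0.71, limma adjusted p = 0.0111), with 9.39, 10.41 and 9.40 in ingWAT and 5.47, 6.93, 5.95 and 6.44 in epiWAT. With Gipr-/- marrow neither passed, at 0.26 for Cox7a1 and 0.34 for Cox8b. Cidea, a lipid droplet protein of brown and beige adipocytes, also rose with double-knockout marrow, by 2.36 (limma adjusted p = 0.0209). Ucp1, the uncoupling protein of brown fat, lay under the floor of the depot fits: it had 5.65, 3.60 and 5.29 on ingWAT double-knockout arrays, 3.39, 3.16 and 4.66 on Gipr-/- arrays, and 5.04, 4.0, 4.23 and 3.52 on WT arrays. In epiWAT it lay between 3.23 and 4.28, apart from 8.45 on Gipr-/- array 4. The muscle genes' part in the Cox7a1 and Cox8b values was not tested.

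Of the other lists, Gabpa was the regulator that passed between depots. With double-knockout marrow it stood at 12.22, 11.70 and 12.35 in ingWAT, against 10.28, 10.80, 10.42 and 11.26 in epiWAT, a difference of 1.40 (SE 0.25, limma adjusted p = 0.00538). Of 14 citric acid cycle genes, positive differences were found for 11 with double-knockout, 13 with Gipr-/- and 9 with WT marrow, and none passed the threshold. Phb, a prohibitin of the inner membrane, was lower in ingWAT with double-knockout marrow, at -1.02 (limma adjusted p = 0.0390), 1 of 15 outer membrane and import genes to pass.

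Whether the marrow differences themselves differed between the depots was tested with interaction contrasts over all 22 arrays. For Gipr-/- minus WT marrow, 0 of the 83 genes and 0% of all genes passed in limma, with 2 higher and 8 lower at an unadjusted p under 0.05 (5.16% and 2.79% of all genes). The ingWAT difference minus the epiWAT difference had a median of -0.15, against 0.06 over all genes, and of -0.38 in complex IV, where 12 of 16 were negative. Atp5e was at -1.06 (limma adjusted p = 0.397). The other interaction, of double-knockout minus Gipr-/- marrow, gave 0 subunit genes past the threshold, where 0.717% of all genes passed, with 5 higher and 3 lower (6.12% and 7.67% of all genes) and a median of 0.11. The complex IV median was 0.47, with 13 of 16 positive. Atp5e had the smallest p, at 1.25 (SE 0.30, limma adjusted p = 0.0581), followed by Ndufb10 at 1.81 (adjusted p = 0.0813). Cox8a went the other way, at -1.05 (adjusted p = 0.118), with marrow differences of -0.25 in ingWAT and 0.80 in epiWAT. With the muscle score in the fit, the medians over the 83 genes were -0.02 for Gipr-/- minus WT and 0.00568 for double-knockout minus Gipr-/- marrow.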

How the data were processed

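The authors deposited 1 table with 21793 features in 22 arrays. The deposited values are read here as log2 values and entered the main fits without further scaling. The labels and the table state neither the log base nor a normalization method. Other scalings moved some of the medians, as given at the end. Partek 6.6 is named in the submitters' processing notes, with no role. Values ran from 1.92 to 19.9 and array medians from 6.11 to 6.54. Within groups, r between arrays lay between 0.911 and 0.984, and 0 arrays were identical. The number of arrays limits the precision. Of the features, 2452 are unnamed here, and for a gene with 2 features the brighter was kept.

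From these values, each depot's 3 groups were fitted with limma 3.58.1 in R 4.3.3 (trend in eBayes, two-sided, Benjamini-Hochberg, threshold 0.05) after the 25% of genes with the lowest mean were left out, leaving 14502. Depot and interaction contrasts came from a fit of 22 arrays in 6 groups. Both fits were checked on simulated data. Nothing in the labels states outright that the arrays are from separate mice; if they are not, p-values measure a spread that may be technical. Array numbers follow accession order and pair nothing. The members and lists were chosen with earlier results of these data known. The rule for named members took those past the threshold (at most 4 per complex and comparison), the 2 with the smallest p in each complex and comparison, those with the highest and lowest mean, the tissue isoforms, the Sdh genes and the subunits with redox centres; from each other list it took the 3 with the smallest p. Other genes named were chosen after their values were seen, as were the lists of ribosomal proteins. Of the other lists written (assembly, cytochrome c, regulators, citric acid cycle, import, carriers, thermogenic, adipocyte, macrophage, muscle, epididymis, germ cell, mesothelium, B cell, endothelium, epithelium), those not given above held no gene past the threshold between kinds of marrow. Genes encoded by mitochondrial DNA were not analysed here. Alternatives were scaling, filters, array weights, marker scores as covariates and leaving out arrays.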

Additional observations from a re-analysis of the deposited data

Results flagged for a closer look

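A group of 4 arrays was checked for an array whose gap to the nearest other was a large share of the group's range (Dixon's test at the 95% level). The check covered the complex scores and Cox4i1, Cox6a2, Cox6b2, Cox7a2l, Cox7b2, Cox8a, Cox8c, Atp5e, Sdhb, Ndufa5 and Ndufs7. Other genes named above were not checked. Of 64 groups checked, 5 had such an array, and chance flags about 1 in 20. The complex III score was -0.51 on epiWAT WT array 2, with the nearest array at 0.03. It was 0.044 on epiWAT Gipr-/- array 3, with the nearest at -0.19, and 0.31 on epiWAT double-knockout array 4, with the nearest at -0.18. The complex IV score was 0.61 on epiWAT Gipr-/- array 1, with the nearest at -0.21, and Cox8c was 11.8 there, with the nearest at 6.27. The germ cell score of that array was 7.65, and its complex IV score without the tissue isoforms was -0.05.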

How the results depend on the processing

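No paired analysis was possible because array numbers follow accession order and carry no pairing. Of 821 values from the alternatives, 711 kept their direction and side of the threshold, stayed within the spread or kept a similar count. The spread allowed for a median was the replicate SD of the subunit score, which in some comparisons was larger than the median itself. Counts of called genes in epiWAT had little room to move. The 711 is therefore not a measure of how firm the results are. Another 60 counts or medians moved, while 42 gene results lost the threshold and 7 gained it. A turn was scored for single genes only, and 1 turned: the Cox6a2 difference between depots with WT marrow. It was -0.29 with the muscle score as covariate, an alternative chosen after seeing the data. Medians were scored by the size of their shift, and several changed sign. The counts of called genes in this section stand without the share of all genes called in the same fits. They are not read as a result about the subunits. Array weights gave 5 called subunit genes for ingWAT Gipr-/- minus WT, 7 for double knockout minus Gipr-/- and 1 for double knockout minus WT. For ingWAT minus epiWAT they gave 2 for double-knockout, 5 for Gipr-/- and 2 for WT marrow, and 3 for the double-knockout interaction. For ingWAT double knockout minus Gipr-/-, no trend gave 1, and fitting only those groups or adding the muscle score gave 0. Quantile normalization moved its median to 0.34 and the interaction's to 0.24. Without both double-knockout arrays with high B cell scores, also chosen after seeing the data, the median was 0.34. For the depots with WT marrow, quantile normalization and no trend each gave 2; with double-knockout marrow, quantile normalization gave 3. The muscle score gave 0 calls in each depot comparison and medians of -0.00179 with double-knockout and -0.11 with WT marrow. Centring arrays on the median moved the Gipr-/- depot median to 0.20, where the median of all genes was 0.16, against 0.02 as deposited. Complex IV and V medians turned positive there. Leaving out 1 array at a time gave 0 to 4 calls for ingWAT Gipr-/- minus WT (4 without double-knockout array 2, 2 without WT array 4), 0 to 6 for double knockout minus Gipr-/- (6 without double-knockout array 2) and 0 to 1 for double knockout minus WT. Between depots it gave 0 to 2 for double-knockout marrow (2 without epiWAT WT array 2 or double-knockout array 4), where the median ran from 0.13 to 0.28, 0 to 1 for Gipr-/- marrow and 0 to 2 for WT marrow (2 without ingWAT WT array 4). It gave 0 to 2 for the double-knockout interaction (2 without ingWAT double-knockout array 2). The medians then ran from 0.06 (without ingWAT WT array 3) to 0.29 (WT array 4) for the WT depots, -0.02 (epiWAT Gipr-/- array 2) to 0.11 (ingWAT Gipr-/- array 2) for the Gipr-/- depots, and 0.00214 (ingWAT Gipr-/- array 2) to 0.21 (Gipr-/- array 3) for the double-knockout interaction. Those of the other interaction ran from -0.24 (ingWAT WT array 4) to -0.10. Within ingWAT they ran from 0.08 (double-knockout array 2) to 0.24 (Gipr-/- array 3) for double knockout minus Gipr-/-, -0.26 to -0.10 for Gipr-/- minus WT, and -0.14 to 0.01 for double knockout minus WT. Within epiWAT they ran from -0.00293 to 0.12, -0.21 to -0.05, and -0.16 (WT array 2) to 0.03 (double-knockout array 1) for the same comparisons. The cause of these changes was not tested. The 3 or 4 arrays in a group limit the precision.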
